A study of Mus musculus with 35 samples.

Results

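The clustered protocadherins are cell surface adhesion proteins whose genes lie side by side in the alpha (Pcdha), beta (Pcdhb) and gamma (Pcdhg) clusters of mouse chromosome 18. The RNA count table held 59 of them among its 23366 genes, taken by symbol. They comprised 15 Pcdha, 22 Pcdhb and 22 Pcdhg genes, the last made up of 12 Pcdhga, 7 Pcdhgb and 3 Pcdhgc genes. To these were added the histone peaks between positions 36900000 and 38050000 of that chromosome in the mm9 build, the stretch set for these clusters.

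The study removed UTX (gene Kdm6a), an X-linked demethylase that takes methyl groups off lysine 27 of histone H3, from the mouse cranial neural crest. All libraries of sorted cells came from E12.5 embryos that carried Wnt1-Cre and the Rosa-Tomato reporter, so that the recombinase acts in the neural crest lineage and that lineage can be sorted by Tomato fluorescence. RNA was sequenced in 2 libraries of female knockouts (Utx fl/fl), 2 of male knockouts (Utx fl/y) and 2 of male wild type, while H3K27me3 and H3K4me3 were each profiled in 3 female knockout, 1 male knockout and 3 wild-type libraries. The male knockout keeps the Y-linked homologue of Utx, Uty, which the female knockout lacks, and the female knockout differs from the wild type in sex as well as in genotype. UTX itself was mapped once, in wild-type cells of O9-1, a cranial neural crest line grown in culture that was isolated from Wnt1-Cre, Rosa-GFP embryos at E8.5.

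Each Pcdha and Pcdhg transcript joins 1 variable exon, read from its own promoter, to constant exons that the whole cluster shares, whereas each Pcdhb gene stands alone. Most variable exons are chosen by chance in each neuron, through promoters bound by CTCF and looped to distant enhancers, so that neighbouring neurons carry different surface codes that let a neurite recognise and avoid itself. The C-type isoforms, Pcdhac1, Pcdhac2, Pcdhgc3, Pcdhgc4 and Pcdhgc5, sit at the ends of their clusters and are mostly expressed without that choice. H3K4me3 marks active promoters, and H3K27me3 marks promoters held silent by Polycomb.

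Reads on genes numbered 14.5 to 16.4 M per RNA library, and those on the 59 members 4985 to 5843. Read depth per member was low, with a median over members of 55.2 reads a library and 10 members under 10 reads a library. The libraries fell into sets that differ in the share of reads assigned to no gene, which was 21.30% to 21.96% in female knockout 1, male knockout 2 and wild type 1 and 27.5% to 27.8% in the other 3, so values within each set are given beside the pooled ones. Kdm6a was counted over the whole gene at 52.9 and 62.4 CPM (counts per 1000000 gene reads, scaled by TMM) in female knockouts, at 40.5 and 31.9 CPM in male knockouts and at 45.6 and 51.5 CPM in wild type, which does not check a deletion of part of the gene. Xist, read from an inactive X chromosome, was at 1589 and 2273 CPM in female knockouts, at 1.43 and 0.696 CPM in male knockouts and at 1.01 and 1.66 CPM in wild type, as the labelled sexes require.

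Summed RNA of the family overlapped between the groups, while 1 gamma gene, Pcdhgb8, was called higher and 1 alpha gene, Pcdha12, lower for both knockouts averaged, beside 5.11% of all genes called. Summed over the 59 members, RNA was 329.7 and 377 CPM in female knockouts, 375 and 316 CPM in male knockouts and 360.0 and 368 CPM in wild type, so the groups overlapped. Across the 22 Pcdhg genes the sums were 268 and 286 CPM in female knockouts, 297 and 252 CPM in male knockouts and 278 and 278 CPM in wild type, again with overlap. Within that cluster the summed CPM of the 3 C-type genes was lower, and that of the 19 others higher, in all 4 knockout libraries than in both wild-type libraries. Without TMM scaling the sum of the 19 overlapped between the groups. Gene by gene, 9 of the 19 lay above wild type in all 4 knockout libraries, and Pcdhgb7 lay below. These are also the only 9 above wild type among all 52 members tested, where 18.8% of all genes lay above. In sorted bulk cells, fewer expressing cells and less RNA per cell cannot be told apart.

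**Figure D1:**
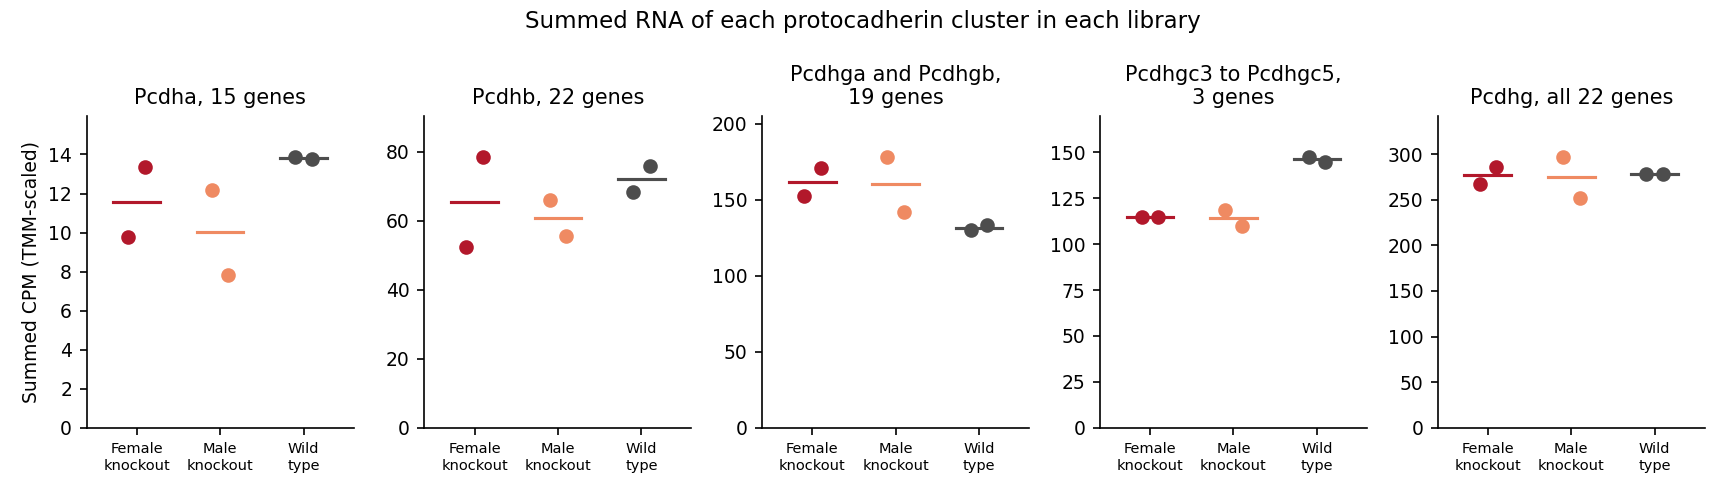
TMM-scaled CPM summed over the genes of each cluster, with 1 point per library and a bar at the mean of each group of 2 libraries; each panel has its own axis, which starts at 0. The panel of Pcdhgc3 to Pcdhgc5 has its 4 knockout points below both wild-type points, the panel of Pcdhga and Pcdhgb has them above, and the panel of all Pcdhg genes shows overlap.

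Pcdhgb8, a B-type gamma isoform with a variable exon near the C-type end of the cluster, rose in both knockouts. It had 3.92 and 6.53 CPM in female knockouts and 5.31 and 3.48 CPM in male knockouts, against 1.14 and 1.28 CPM in wild type. These rest on 60 and 101 reads in female knockouts, 78 and 55 in male knockouts and 18 and 20 in wild type, and the lowest knockout library stood well above the higher wild-type one. The log2 fold change was 2.10 ± 0.37 (SE) in female knockouts, 1.85 ± 0.37 in male knockouts and 1.98 ± 0.33 for both knockouts averaged, with adjusted p of 0.0401, 0.0404 and 0.0161 in edgeR's quasi-likelihood test with Benjamini-Hochberg adjustment over all 14521 genes tested. Within the sets of libraries, the log2 ratio of female knockout to wild type was 1.78 and 2.35, and that of male knockout to wild type 1.61 and 2.05. The call rests on few libraries: the adjusted p rose to 0.0554 in female knockouts without male knockout 1, to 0.0532 without male knockout 2 and to 0.0670 without wild type 2, and to 0.232, 0.101 and 0.0770 in male knockouts without the same 3 libraries. Fitted on female knockouts and wild type only, the female knockout call was also lost (adjusted p 0.0808). For both knockouts averaged the adjusted p was 0.0509 without male knockout 1 and below the threshold without any other library.

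Pcdhgb8 was 1 of 52 members tested in female knockouts, where 1.12% of all genes were called, and 1 of 52 in male knockouts, where 2.34% were called. For both knockouts averaged, 1 member was higher (Pcdhgb8) and 1 lower (Pcdha12), beside 1.07% of all genes higher, 4.04% lower and 5.11% in either direction, so the share of members called is near that of all genes in each comparison. The median log2 fold change over the 52 members was -0.09 for both knockouts averaged, beside 0.01 over all genes tested. No member was called between female and male knockouts in edgeR or in DESeq2, where 0.0344% of all genes were called by edgeR and 0.0195% by DESeq2. In edgeR 2 members, Pcdha2 and Pcdhga1, had an unadjusted p under 0.05. Their log2 differences, female over male knockout, were 1.43 for Pcdha2 and -0.77 for Pcdhga1.

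**Figure D2:**
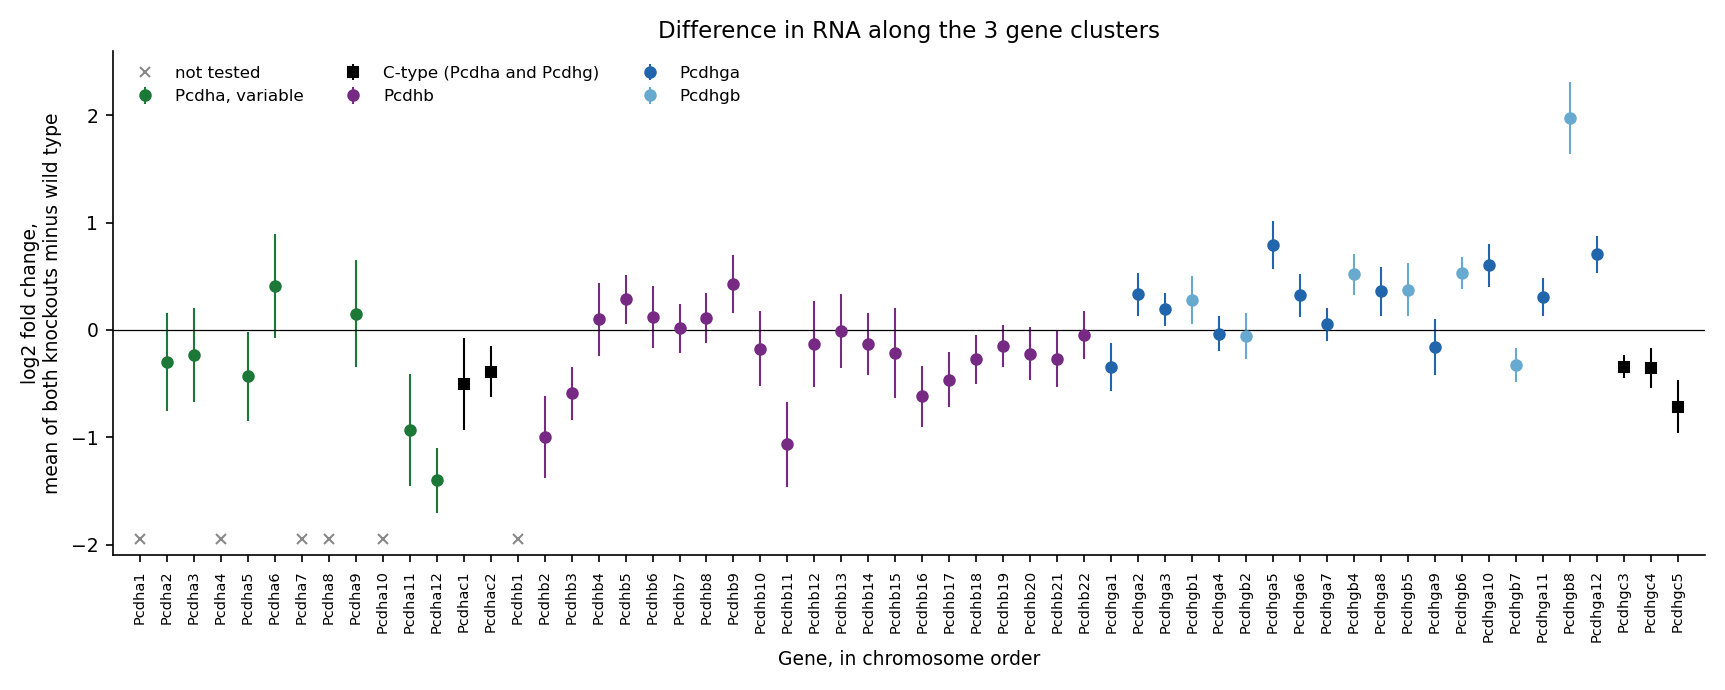
Log2 fold change of both knockouts averaged over wild type (y axis) for the 58 members with a RefSeq position, in the order of the genes along the chromosome (x axis); bars are the SE of the edgeR fit, and crosses mark members with too few reads to test. Pcdhgb8 stands at 1.98 and Pcdha12 at -1.40, and the 5 C-type genes lie below 0.

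The 19 Pcdhga and Pcdhgb genes, whose promoters are among those chosen by chance, summed to 153 and 171 CPM in female knockouts and 178 and 142 CPM in male knockouts, against 130.2 and 133 CPM in wild type. All 4 knockout libraries were above both wild-type libraries, by a mean log2 ratio of 0.30 in female and 0.28 in male knockouts. Within the sets the ratio was 0.23 and 0.36 in female and 0.13 and 0.42 in male knockouts. Relative to total gene counts, TMM scaling raises the knockout to wild-type ratios of group means by about 0.12 on the log2 scale. Without it these sums overlapped, with log2 ratios of 0.18 in female and 0.16 in male knockouts.

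Of these 19 genes, 14 had a positive log2 fold change for both knockouts averaged, with a median of 0.32, and 1, Pcdhgb8, passed the test. Pcdhga12, the last Pcdhga gene before the C-type exons, had 12.7 and 15.6 CPM in female knockouts and 15.9 and 13.5 CPM in male knockouts, against 8.05 and 9.67 CPM in wild type. All knockout libraries were above both wild-type libraries, and the log2 fold change of 0.70 ± 0.17 (SE) for both knockouts averaged missed the edgeR threshold with an adjusted p of 0.0547. DESeq2, which called 5.43% of all genes in that comparison, gave it an adjusted p of 0.0238. Pcdhgb6, with more reads than any other Pcdhga or Pcdhgb gene, had 20.03 and 21.5 CPM in female knockouts, 22.6 and 17.7 CPM in male knockouts and 13.9 and 14.3 CPM in wild type. Its groups did not overlap either, and edgeR put its log2 ratio at 0.53 ± 0.15 (SE) and its adjusted p at 0.0783. Pcdhgb7, a B-type gene that lies between them, ran the other way: it had 11.4 and 14.7 CPM in female knockouts and 13.8 and 12.2 CPM in male knockouts, against 17.4 and 15.3 CPM in wild type. All knockout libraries were below both wild-type libraries, and its log2 fold change of -0.33 ± 0.16 (SE) did not pass, with an edgeR adjusted p of 0.222. The remaining 15 genes had log2 fold changes between -0.35 and 0.79, and none passed.

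Each of the 5 C-type isoforms had its 4 knockout libraries below both wild-type libraries, where 20.1% of all genes did. The margins differed between isoforms and were negligible for Pcdhac1, and none of the 5 passed the test. Pcdhgc3, which is broadly expressed and supplied more reads than any other member, had 107 and 106 CPM in female knockouts and 108 and 101 CPM in male knockouts, against 137 and 131 CPM in wild type. Its libraries rest on 1586 to 1637 reads in the knockouts and on 2157 and 2040 in wild type, the groups lie apart, and the log2 fold change for both knockouts averaged was -0.34 ± 0.10 (SE), with an edgeR adjusted p of 0.0969. Within the sets the log2 ratio of Pcdhgc3 was -0.36 and -0.30 in female knockouts and -0.43 and -0.27 in male knockouts.

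Pcdhgc4, an isoform known in mice for keeping neurons alive, had 5.55 and 6.07 CPM in female knockouts, 7.09 and 5.38 CPM in male knockouts and 7.16 and 8.20 CPM in wild type. Its highest knockout library lay just below the lower wild-type one, and edgeR put the log2 ratio at -0.35 ± 0.19 (SE) and the adjusted p at 0.255. Pcdhgc5 had 2.48 and 2.84 CPM in female knockouts, 3.41 and 3.04 CPM in male knockouts and 3.67 and 5.96 CPM in wild type. The 2 wild-type libraries differed more between themselves than the knockout libraries did, and edgeR put the log2 ratio at -0.72 ± 0.25 (SE) and the adjusted p at 0.123. Pcdhac2 had 3.13 and 4.65 CPM in female knockouts, 5.04 and 3.54 CPM in male knockouts and 5.51 and 5.19 CPM in wild type, a log2 ratio of -0.39 ± 0.23 (SE) with an adjusted p of 0.308. Pcdhac1, the least read of the 5, had 0.588 and 0.581 CPM in female knockouts, 0.273 and 0.696 CPM in male knockouts and 0.697 and 0.832 CPM in wild type. Male knockout 2 and wild type 1 were thus nearly tied, at 0.696 and 0.697 CPM. The log2 ratio of Pcdhac1 was -0.51 ± 0.43 (SE), with an adjusted p of 0.462 in the same edgeR fit.

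Summed over the 5 C-type genes, RNA was 118 and 119.9 CPM in female knockouts and 124 and 114 CPM in male knockouts, against 154 and 151 CPM in wild type. The log2 ratio of the means was -0.35 in female and -0.36 in male knockouts, and -0.47 and -0.48 on total gene counts without TMM, where the groups also lay apart. The sum is nearly that of Pcdhgc3 alone.

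**Figure D3:**
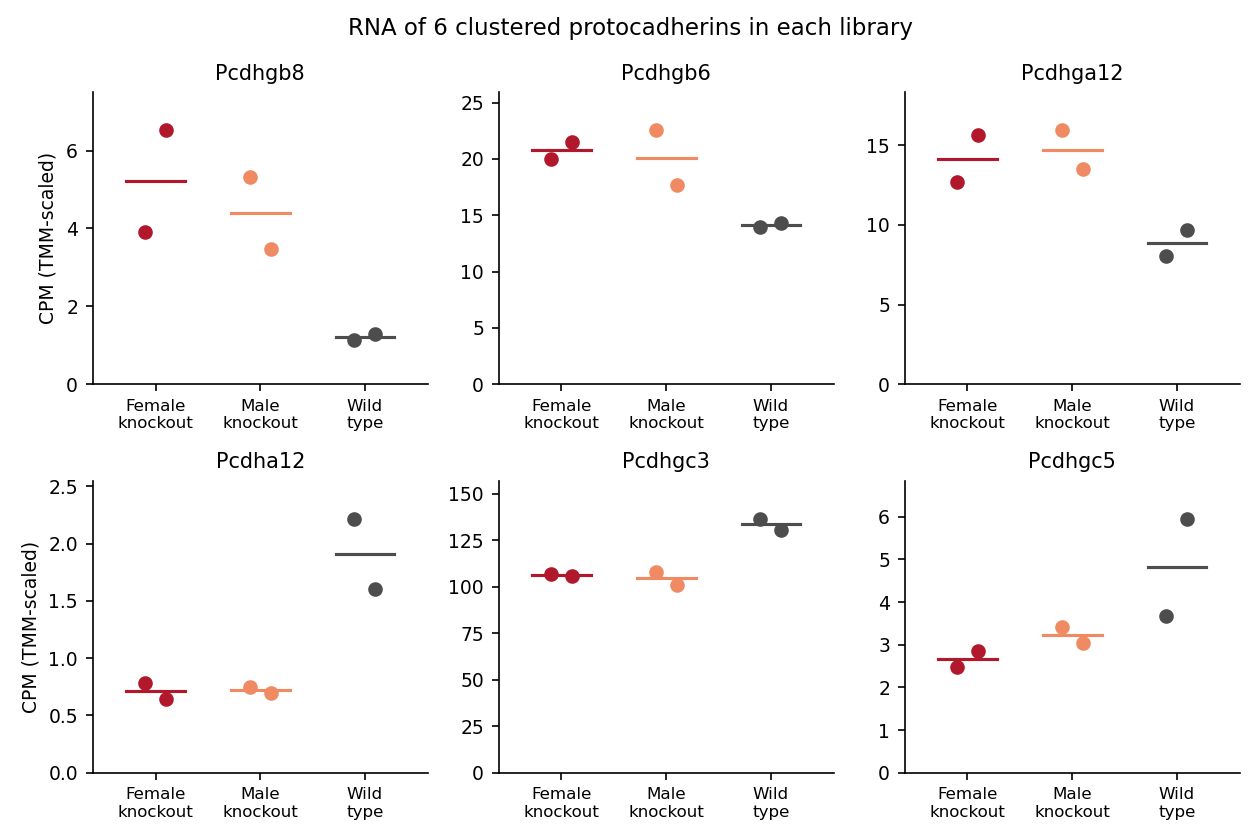
TMM-scaled CPM of 6 named members in each library, with a bar at the mean of each group of 2 libraries; each panel has its own axis from 0. The knockout points of Pcdhgb8, Pcdhgb6 and Pcdhga12 lie above both wild-type points and those of Pcdha12, Pcdhgc3 and Pcdhgc5 below; of these, Pcdhgb8 and Pcdha12 passed the edgeR test.

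Shares of the gamma reads need no scaling between libraries. Pcdhga and Pcdhgb genes took 57.1% and 59.8% of the Pcdhg reads in female knockouts and 60.1% and 56.5% in male knockouts, against 46.9% and 48.0% in wild type. The exact (Clopper-Pearson) 95% intervals, which cover counting error only, reached down to 54.9% in the knockouts and up to 49.5% in wild type. Pcdhgc3 took 39.9% and 37.0% in female knockouts and 36.4% and 40.2% in male knockouts, against 49.2% and 47.0% in wild type, and Pcdhgb8 took 1.46% and 2.29% in female knockouts and 1.79% and 1.38% in male knockouts, against 0.411% and 0.460% in wild type. Pcdhga and Pcdhgb reads therefore outnumbered Pcdhgc reads in each knockout library, by ratios of 1.33 and 1.49 in female and 1.504 and 1.298 in male knockouts, and not in wild type, where the ratios were 0.883 and 0.922. No test was made of these shares, since the groups of genes were chosen with results of these data known.

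**Figure D4:**
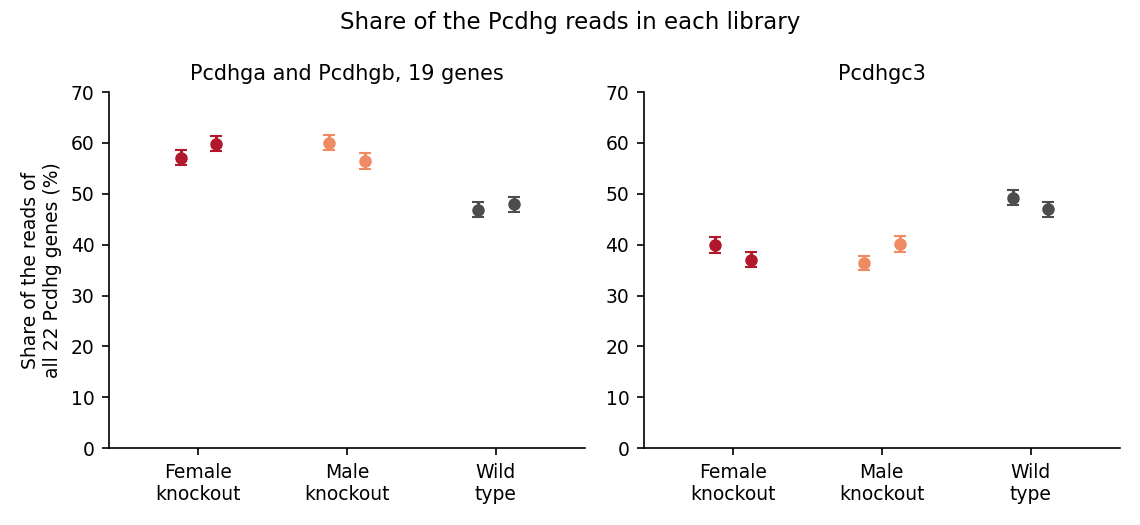
Share of the reads of all 22 Pcdhg genes that fell on the 19 Pcdhga and Pcdhgb genes (left) and on Pcdhgc3 (right), in percent; each point is 1 library, and bars are exact 95% binomial intervals, which cover counting error only. The knockout libraries lie between 56.5% and 60.1% on the left and between 36.4% and 40.2% on the right, apart from the wild-type libraries in both panels.

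Alpha genes had few reads and mostly negative differences. The 15 Pcdha genes summed to 9.79 and 13.4 CPM in female knockouts and 12.2 and 7.85 CPM in male knockouts, against 13.9 and 13.8 CPM in wild type. Female knockout 2 lay close to the wild-type libraries, and the knockout libraries of the set with the lower unassigned share were the lowest. Of the 9 alpha genes tested, 7 had a negative log2 fold change for both knockouts averaged and 1, Pcdha12, fell.

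Pcdha12, the last alternate alpha isoform before the C-type exons, had 0.783 and 0.646 CPM in female knockouts and 0.750 and 0.696 CPM in male knockouts, against 2.22 and 1.60 CPM in wild type. That is 12, 10, 11 and 11 reads in the knockout libraries against 35 and 25 in wild type, and the groups lie apart. The log2 fold change was -1.40 ± 0.30 (SE) for both knockouts averaged, with an edgeR adjusted p of 0.0364. It missed the threshold in either knockout alone, at 0.113 in female and 0.0851 in male knockouts, and DESeq2 gave an adjusted p of 0.100 for both averaged. The call was lost without male knockout 1 (adjusted p 0.0987), male knockout 2 (0.111), wild type 1 (0.112) or wild type 2 (0.0806). Pcdha11, its neighbour, had 0.588 and 1.23 CPM in female knockouts, 0.681 and 0.253 CPM in male knockouts and 0.697 and 1.79 CPM in wild type, with overlap, and edgeR put its log2 ratio at -0.93 ± 0.52 (SE) and its adjusted p at 0.278. Pcdha1, Pcdha4, Pcdha7, Pcdha8, Pcdha10, Pcdha4-g and Pcdhb1 had at most 50 reads over all 6 libraries and were not tested, and Pcdha4-g had none.

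No beta gene passed the test, where 5.11% of all genes did for both knockouts averaged. The 22 Pcdhb genes summed to 52.4 and 78.6 CPM in female knockouts, 66.0 and 55.8 CPM in male knockouts and 68.5 and 75.9 CPM in wild type, with overlap. Of the 21 tested, 11 had a negative log2 fold change in female knockouts, with a median of -0.01, and 16 in male knockouts, with a median of -0.31. For both knockouts averaged 15 were negative, with a median of -0.15. The 3 with the smallest p were all lower. Pcdhb11 had 0.392 and 1.42 CPM in female knockouts, 1.29 and 1.39 CPM in male knockouts and 2.66 and 1.99 CPM in wild type. Pcdhb2 had 0.783 and 1.23 CPM in female knockouts, 1.70 and 0.633 CPM in male knockouts and 2.34 and 1.99 CPM in wild type. For both, every knockout library was below every wild-type library, and the log2 fold changes were -1.07 ± 0.40 for Pcdhb11 (edgeR adjusted p 0.145) and -0.9997 ± 0.38 for Pcdhb2 (edgeR adjusted p 0.152). Pcdhb3 had 2.74 and 4.33 CPM in female knockouts, 3.20 and 2.41 CPM in male knockouts and 4.24 and 5.25 CPM in wild type, with overlap and an edgeR adjusted p of 0.180.

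The 3 beta genes with the most reads did not separate the groups. Pcdhb17 had 4.77 and 8.66 CPM in female knockouts, 4.70 and 5.32 CPM in male knockouts and 6.84 and 9.16 CPM in wild type. Pcdhb22 had 5.94 and 6.65 CPM in female knockouts, 6.47 and 4.37 CPM in male knockouts and 5.13 and 6.92 CPM in wild type. Pcdhb7 had 4.50 and 7.17 CPM in female knockouts, 5.72 and 5.38 CPM in male knockouts and 5.07 and 6.21 CPM in wild type. Their log2 fold changes for both knockouts averaged were -0.46, -0.05 and 0.01.

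Counted over all 52 members tested, 9 had all 4 knockout libraries above both wild-type libraries, where 18.8% of all genes did, and 11 had all of them below, where 20.1% did. The 9 were all Pcdhga or Pcdhgb genes, and the 11 were 3 alpha genes, 4 beta genes, Pcdhgb7 and the 3 Pcdhgc genes. With the set of libraries as a term in the fit, 8 members were called in female knockouts, where 23.3% of all genes were, 9 in male knockouts (24.7%) and 12 for both averaged (32.6%). Of the 12, the 6 higher were Pcdhga5, Pcdhga10, Pcdhga12, Pcdhgb4, Pcdhgb6 and Pcdhgb8, and the 6 lower were Pcdha12, Pcdhb2, Pcdhb3, Pcdhb16, Pcdhgc3 and Pcdhgc5. Pcdhgc3 had an adjusted p of 0.00651 and Pcdhga12 one of 0.00435 in that edgeR fit.

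Regulators of the central nervous system, where these genes are best known, were mostly lower in knockouts, while the summed pan-neuronal markers overlapped between the groups. The 14 regulators of the central nervous system summed to 119 and 169 CPM in female knockouts and 137 and 145 CPM in male knockouts, against 299 and 387 CPM in wild type. For both knockouts averaged 11 of 13 tested were lower and none higher, beside 4.04% of all genes lower and 1.07% higher. Neurog2, a proneural factor, had 7.97 and 10.0 CPM in female knockouts, 9.40 and 10.4 CPM in male knockouts and 33.7 and 35.0 CPM in wild type, with a fitted log2 ratio of -1.86 ± 0.14 (SE) and an adjusted p of 0.000843 in edgeR. The 21 pan-neuronal markers summed to 2510.3 and 2882 CPM in female knockouts and 1937 and 3156 CPM in male knockouts, against 3151 and 3608 CPM in wild type, with overlap. Of them 4 were lower, among them Celf3, an RNA-binding protein of neurons, at -1.45 ± 0.18 (SE), and 1 was higher, Nefl, a neurofilament subunit, at 1.154 ± 0.26. No marker of either list was at 0 in any library, and the part of these marker differences in the protocadherin values was not tested.

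Genes that act on the clusters or with their proteins showed no call, in lists too small to set apart from the 5.11% of all genes called. None of the 22 architectural and silencing factors passed for both knockouts averaged, 4 had a positive difference, and the median was -0.10. Among 14 intracellular partners tested, none passed, with a median of -0.06. Of 13 tested protocadherins outside the clusters, 1 was lower, Pcdh8, which takes part in cell movement and synapse remodelling. Pcdh8 had 11.6 and 13.6 CPM in female knockouts and 10.4 and 11.2 CPM in male knockouts, against 24.9 and 24.1 CPM in wild type, a log2 ratio of -1.07 ± 0.14 (SE) that edgeR gave an adjusted p of 0.00627. None of the 16 tested genes next to the clusters passed, and 12 of them had a positive difference, with a median of 0.13.

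The window on chromosome 18 carried much H3K4me3 and little H3K27me3. H3K4me3 peaks covered 11.3% of the 1150 kb, beside 3.18% of chromosomes 1 to 19, and H3K27me3 peaks covered 1.84%, beside 2.93%. The tables list peaks called in female knockouts and in wild type as separate entries, so a place called in both appears as 2 overlapping entries that share reads: the 160 H3K4me3 entries form 86 regions and the 14 H3K27me3 entries form 8. Of the 8 H3K27me3 regions, 7 overlapped an H3K4me3 region. No mm9 gene annotation was used, so peaks are given by position and not assigned to genes. Some may belong to other genes within the window. Coverage, UTX peaks and calls therefore describe the window, not the protocadherins alone.

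H3K4me3 regions fell into 3 stretches parted by gaps of over 100 kb, a division made after seeing the data. The stretch chr18:36902620-36962906 held 6 regions with a median width of 2.43 kb, the stretch chr18:37105758-37678589 held 33 with a median of 0.486 kb, and the stretch chr18:37798519-38043841 held 47 with a median of 1.60 kb. In O9-1 cells, 5 UTX peaks lay in the stretch nearest the start of the window, none in the middle stretch and 10 in the last, with 1 more outside them. Of the 16 UTX peaks, 15 overlapped an H3K4me3 region and none an H3K27me3 region. The widest H3K4me3 region of the window, chr18:37964782-37971882 (7.10 kb), overlapped the UTX peak with the most reads, 296 reads or 73.6 per kb, where the median UTX peak had 47.0 per kb.

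Few H3K4me3 peaks of the window differed between female knockouts and wild type relative to the rest of the genome, except in its first stretch. Of 159 entries tested, 21 were higher and 14 lower, which is 35 of 159, where edgeR called 24.8% of all entries on chromosomes 1 to 19 higher and 32.5% lower, or 57.4% in all. By stretch, 6 of 12 entries were higher and 2 lower in the first (66.7% called). In the middle stretch 3 of 55 were higher and 5 lower (14.5%), and in the last 12 of 92 were higher and 7 lower (20.7%). The window's entries had a median of 478 reads over 7 libraries beside 547 for all entries, and 53.75% beside 48.3% were under 500 reads. In the first stretch 11 of 12 entries had 500 reads or more, in the middle stretch 8 of 56 and in the last 55 of 92. The part of read depth in the share called was not tested. The split depends on the scaling: with RLE size factors 34 were higher and 12 lower, with 59.2% of all entries called, and on total counts in peaks 6 were higher and 22 lower, with 51.7% called. Under these scalings the median of all entries was -0.02 and -0.20 on the log2 scale, beside -0.08 with TMM. In the single male knockout library 29 of 160 entries were higher and 20 lower than in wild type, where 49.3% of all entries were called. The lone library is taken to have the spread of the other groups.

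The widest region of the window, also the one with the most reads, differed little. As the wild-type peak calls outline it, it had 74.8, 74.6 and 74.0 CPM (per 1000000 reads in H3K4me3 peaks) in female knockouts and 80.6 CPM in the male knockout, against 71.1, 68.2 and 70.9 CPM in wild type. All knockout libraries were slightly higher, by 0.08 ± 0.04 (SE) on the log2 scale in female knockouts, which missed the edgeR threshold (adjusted p 0.0677), and by 0.20 ± 0.06 in the male knockout (adjusted p 0.00162). At the start of the window, chr18:36902620-36905514 had 49.8, 46.6 and 45.3 CPM in female knockouts and 50.04 CPM in the male knockout, against 43.7, 43.2 and 40.8 CPM in wild type, a log2 fold change of 0.14 ± 0.04 in female knockouts (edgeR adjusted p 0.00236). That call was lost on total counts (adjusted p 0.480) and without wild type 3 (0.0564), while the widest region passed in female knockouts with RLE factors (0.0233), in DESeq2 (0.0101), with the replicate block (0.0139) and without wild type 1 (0.0490). On total counts the widest region changed direction in female knockouts, to a log2 fold change of -0.0392, so its rise depends on the scaling.

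Larger differences lay at peaks weaker than those 2 regions, though not only at peaks with few reads. At chr18:36924655-36925740 H3K4me3 was 1.80, 1.70 and 1.37 CPM in female knockouts and 1.66 CPM in the male knockout, against 3.48, 3.34 and 3.45 CPM in wild type. The groups lie apart, and the log2 difference was -1.08 ± 0.15 (SE) in female knockouts, with an edgeR adjusted p of 1.75e-10, and -1.05 ± 0.21 in the male knockout, with 5.76e-06. At chr18:37946341-37947436 it was 0.779, 1.01 and 1.37 CPM in female knockouts and 1.05 CPM in the male knockout, against 1.63, 2.33 and 2.31 CPM in wild type. The log2 fold change was -1.002 ± 0.19 in female knockouts (edgeR adjusted p 3e-06). This peak was called in wild type only, a choice that favours lower values in knockouts. A broader and better read region near the end of the window, chr18:38009018-38013432, overlapped a UTX peak of O9-1 cells. It had 10.04, 10.8 and 11.02 CPM in female knockouts and 12.01 CPM in the male knockout, against 14.9, 13.8 and 14.9 CPM in wild type. Its log2 difference was -0.47 ± 0.07 (edgeR adjusted p 4.61e-10) in female knockouts.

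The highest fold change was at a narrow peak called in female knockouts only, chr18:37862754-37863049, with 15, 15 and 14 reads in female knockouts and 3 in the male knockout, against 2, 3 and 1 reads in wild type. Female knockouts stand apart, and the male knockout lies within the wild-type range of 1 to 3 reads. edgeR fitted a log2 difference of 2.59 ± 0.51 (SE) in female knockouts, with an adjusted p of 8.25e-06. The peak is listed because it was called in female knockouts, so high values there were favoured by that choice.

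H3K4me3 entries at a UTX peak of O9-1 cells were the better read ones, with a median of 3541 reads over 7 libraries, against 336 for the others. Of these 32 entries 10 were higher and 5 lower in female knockouts, and the median log2 fold change was 0.08, while among the 127 other entries tested 11 were higher and 9 lower, with a median of 0.02, beside 57.4% of all entries called. In the single male knockout library 16 of the 32 were higher and 2 lower, with a median of 0.19, and of the 128 others 13 were higher and 18 lower, with a median of -0.08, beside 49.3% of all entries called. Read depth moves with UTX overlap here, and its part in the difference between these sets was not tested.

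H3K27me3, the mark that UTX removes, was lower at more of its peaks in the window than higher in female knockouts. Of 14 entries 1 was higher and 4 were lower, together 35.7%, where 13.9% of all entries on chromosomes 1 to 19 were higher and 11.9% lower, or 25.8% in all. On total counts in peaks none was higher and 5 were lower. The 5 called entries lie in 4 of the 8 regions, so the count rests on few places. Of the 8 regions, 2 had been called as peaks in wild type only and 0 in female knockouts only. Those 2 are among the lower ones, and listing them by their wild-type peaks favours that direction. In the single male knockout library 1 of 14 was called, lower, where 6.94% of all entries were.

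At chr18:37248000-37251219 H3K27me3 was 6.55, 8.43 and 7.56 CPM (per 1000000 reads in H3K27me3 peaks) in female knockouts and 8.88 CPM in the male knockout, against 13.2, 12.3 and 12.8 CPM in wild type. Every knockout library lay below every wild-type one, and the log2 difference was -0.77 ± 0.09 (SE) in female knockouts, with an edgeR adjusted p of 2.68e-14, and -0.52 ± 0.13 in the male knockout, with 0.00193. The strongest H3K27me3 region of the window, chr18:37300326-37308683, also carried H3K4me3. As outlined in wild type it had 56.3, 51.8 and 54.1 CPM in female knockouts and 49.9 CPM in the male knockout, against 50.9, 49.1 and 51.2 CPM in wild type, a log2 fold change of 0.10 ± 0.04 in female knockouts that missed the threshold (edgeR adjusted p 0.0725). As outlined in female knockouts it passed, at 0.13 ± 0.05 (0.0187), and the male knockout was called in neither outline. That call was lost in DESeq2 (adjusted p 0.120), on total counts (0.121) and without wild type 2 (0.0893) or female knockout 1 (0.137).

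The 2 other called places had few reads. At chr18:37806592-37808394 there were 30, 26 and 34 reads in female knockouts and 46 in the male knockout, against 47, 52 and 35 in wild type, a log2 fold change of -0.62 ± 0.20 in female knockouts (edgeR adjusted p 0.0112). At chr18:37914710-37915741 there were 28, 30 and 26 reads in female knockouts and 29 in the male knockout, against 41, 46 and 32 in wild type, a log2 fold change of -0.55 ± 0.21 (edgeR adjusted p 0.0381). In both, female knockouts lay below wild type without overlap. Both peaks were called in wild type only, a choice that favours lower values in knockouts. The first call was lost without wild type 2 (adjusted p 0.0842) or female knockout 2 (0.0980), and the second without any of 5 of the 6 libraries compared (0.0710 to 0.169).

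**Figure D5:**
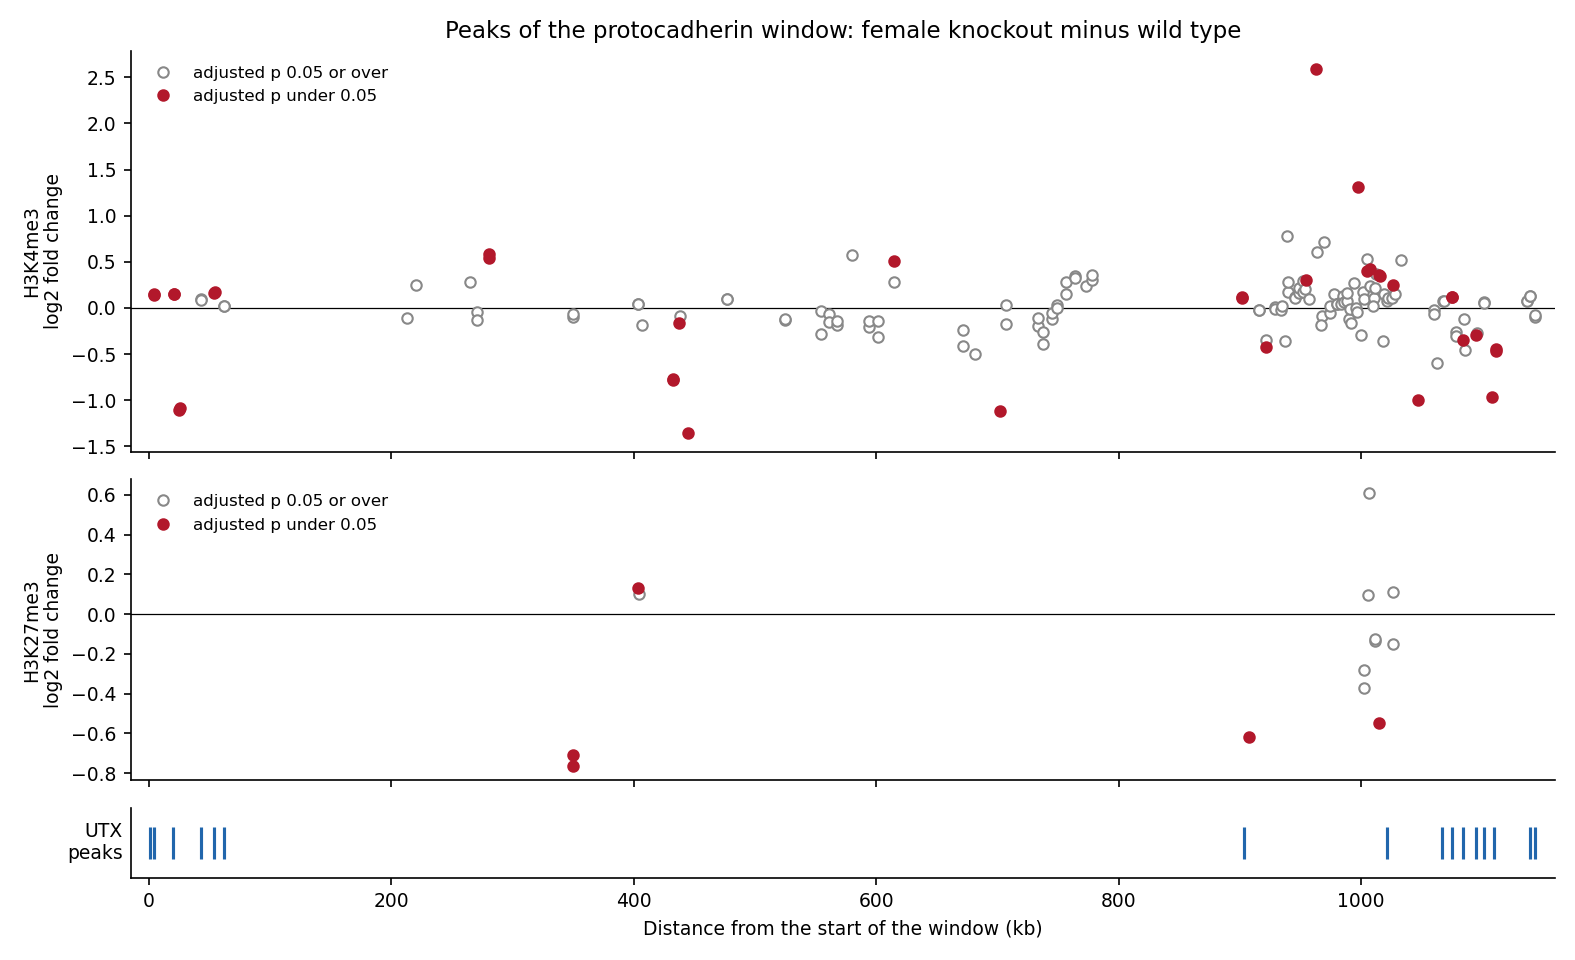
Log2 fold change of female knockouts over wild type (y axis) at each H3K4me3 entry (top) and H3K27me3 entry (middle) against its distance from the start of the window in kb (x axis); filled points passed an adjusted p of 0.05 in edgeR, and ticks (bottom) mark the 16 UTX peaks of O9-1 cells. H3K27me3 points lie in the middle and last stretches of H3K4me3, and no UTX peak falls in the middle one.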

How the data were processed

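RNA, H3K27me3, H3K4me3 and UTX libraries of mouse cells were used, grouped by genotype and sex. The authors deposited raw read counts per gene and per peak, −log10 q-values and a MACS2 score for each peak. Per the submitters' processing notes, reads were trimmed and aligned to mm9 with tools among Trimmomatic, Bowtie2, TopHat2 and SAMtools, and MACS2, HTSeq and bedtools are also named; versions, strand setting and annotation are not given in the sources used here. H3K27me3 −log10 q-values as deposited were read but support no result, and the authors' UTX score was not used, since its rank correlation with reads per base was 0.117 across peaks.

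Counts were tested with edgeR 4.0.16 (quasi-likelihood test, TMM, filterByExpr, 14521 genes; 52 of 59 members passed) and Benjamini-Hochberg adjustment at 0.05. All 6 RNA libraries shared a fit; female knockouts and wild type alone were fitted for chromosomes 1 to 19 of each histone mark, and the male knockout in a fit of all 7 libraries. H3K27me3 libraries held 15.4 to 19.1 M and H3K4me3 libraries 22.7 to 40.1 M reads in peaks. On simulated counts for female knockouts against wild type, 79% of 2-fold and 95% of 4-fold changes were recovered over 14521 genes. Beside them, 21 unchanged genes were called. The changed genes were drawn from all genes tested, not at the read depth of the members, and no sets of libraries were simulated. These rates therefore do not give the power or the false calls for the members.

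No label says that replicates came from separate embryos, so p-values measure the spread between libraries, which may be technical. Members and lists were chosen with earlier results of these data known. Members named with values are those called, the C-type isoforms and, per cluster, the 3 with the most reads and the 3 with the smallest p; Pcdha2, Pcdhga1 and those called only with the set term were named after their values were seen. H3K27me3 and H3K4me3 entries named are the 6 called with the smallest p and the 3 with the most reads. In the GRCm38.p6 RefSeq table, used for gene order only, 14 Pcdha and all 22 Pcdhg gene spans overlap one another, so reads on their shared exons cannot be given to 1 isoform; 0.595% to 0.780% of reads per library were ambiguous. Alternatives were RLE, total counts, no filter, DESeq2 1.42.0, a replicate block, the library set as a term, only the groups compared, and leaving out each library.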

Additional observations from a re-analysis of the deposited data

How the results depend on the processing

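Numbers of members called changed little with the tool, and more with the library set as a term or with a library left out. Members called under RLE, without the filter, with DESeq2 and with a replicate block numbered 1, 1 and 2 in female knockouts, male knockouts and both averaged, as in the report, although DESeq2 called Pcdhga12 in place of Pcdha12. With the set of libraries as a term they numbered 8, 9 and 12, beside 23.3%, 24.7% and 32.6% of all genes. With only the groups compared they numbered 0 in female and 2 in male knockouts. Leaving out 1 library gave 0 to 2 in female knockouts, 0 to 2 in male knockouts and 0 to 6 for both averaged, the 6 being without female knockout 2. Replicate numbers do not pair the libraries (correlations of deviations 0.43 for female knockout and -0.24 for male knockout with wild type); crossing them for the male knockout gives the set term. With the replicate block, 44 H3K4me3 entries were called. H3K27me3 calls in female knockouts numbered 2 with DESeq2, which gave no adjusted p at 2 others, and ranged from 2 to 5 when 1 library was left out, being 2 without wild type 2 and 3 without female knockout 1.

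The log2 ratio of the Pcdhg sum, -0.01 in female and -0.02 in male knockouts, became -0.13 in female knockouts on total counts, and 0.24 and 0.23 without Pcdhgc3. Leaving out 1 library moved some uncalled log2 fold changes across 0: Pcdha11 (-1.09 to 0.36) and Pcdhb17 (-0.77 to 0.12) in female knockouts; Pcdhb22 in female knockouts (-0.13 to 0.27), male knockouts (-0.46 to 0.11) and both (-0.24 to 0.17); Pcdhb7 in female knockouts (-0.35 to 0.35), male knockouts (-0.16 to 0.12) and both (-0.19 to 0.16). So did the male knockout at chr18:37300326-37308683 (-0.0319 to 0.000444; outlined in female knockouts -0.00521 to 0.0303), chr18:37806592-37808394 (-0.13 to 0.0590) and chr18:37862754-37863049 (-0.17 to 0.83). On total counts the widest H3K4me3 region was at -0.0392 in female knockouts as outlined in wild type and at -0.0358 as outlined in female knockouts. The cause of these changes was not tested.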

Other observations

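Classical cadherins, adhesion proteins outside the protocadherins, held 3 calls among 18 tested for both knockouts averaged, beside 5.11% of all genes. Cdh22 had 4.44 and 4.78 CPM in female knockouts and 4.02 and 4.05 CPM in male knockouts, against 9.50 and 9.35 CPM in wild type, a log2 difference of -1.13 ± 0.16 (SE) with an adjusted p of 0.00950 in edgeR. Cdh4, known as R-cadherin, had 34.0 and 35.5 CPM in female knockouts, 30.5 and 31.5 CPM in male knockouts and 47.0 and 47.6 CPM in wild type, a log2 difference of -0.53 ± 0.10 (edgeR adjusted p 0.0266). Cdh15, the cadherin of muscle precursors, had 2.81 and 1.10 CPM in female knockouts and 1.499 and 1.90 CPM in male knockouts, against 0.190 and 0.256 CPM in wild type, and rose by 2.99 ± 0.57 (edgeR adjusted p 0.0244). Before TMM scaling 1 read is 0.0612 to 0.0689 CPM, so its fold change rests on very few wild-type reads.

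Markers of cell types other than neurons held 1 call for both knockouts averaged, where 5.11% of all genes were called. Of 14 cranial mesenchyme markers, which summed to 5549 and 5975 CPM in female knockouts, 6821 and 5782 CPM in male knockouts and 6367 and 6452 CPM in wild type, 1 was higher for both knockouts averaged, Twist2. None of 8 Schwann and glial, 8 endothelial, 6 macrophage and leukocyte, 5 erythroid and 8 epithelial markers tested passed. Schwann and glial markers summed to 369 to 441 CPM in female knockouts, 348 to 439.7 CPM in male knockouts and 334 to 373 CPM in wild type. Erythroid markers summed to 1363 CPM in male knockout 2 and to 310.2 to 514 CPM in the other libraries. Endothelial markers summed to 11.7 to 17.1 CPM, macrophage and leukocyte markers to 4.50 to 8.93 CPM and epithelial markers to 13.8 to 21.8 CPM over the 6 libraries.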
